A study of Mus musculus with 39 samples.

Results

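Described here are 10 genes of prostaglandin and leukotriene synthesis, breakdown and reception in mouse cells sorted as granulocytic or monocytic, and in unsorted cells. They were chosen by name, as the rows whose gene symbol is Ptgs1, Ptgs2, Ptges, Ptger2, Ptger4, Hpgd, Alox5, Alox5ap, Alox15 or Ltb4r1, and make up 10 of the 53465 genes in the table. All 10 passed the filter on low values, 1 TPM (transcript abundance scaled by length and library) or more in 3 or more libraries, which kept 18466 genes. The values did not choose the members, so the comparisons below are tests on them, although earlier results of these data were known when the list was drawn up.

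Arachidonic acid, released from membranes by phospholipases, is the substrate of both branches. The cyclooxygenases Ptgs1 (constitutive in many tissues) and Ptgs2 (inducible, and known for its part in intestinal polyps of Apc mutant mice) make prostaglandin H2, which Ptges turns into prostaglandin E2. Ptger2 and Ptger4 are receptors for prostaglandin E2 that raise cyclic AMP, and Hpgd inactivates prostaglandins. In the other branch Alox5, helped by its activating protein Alox5ap, makes leukotriene A4, the precursor of leukotriene B4, which attracts neutrophils through its receptor Ltb4r1. Alox15 adds oxygen at other positions of the fatty acid and is known from eosinophils and resident macrophages of mice. Prostaglandin E2 is known as a factor that myeloid-derived suppressor cells (MDSCs), immature myeloid cells that restrain T cells, both make and respond to.

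The 39 libraries fall into 13 groups of 3. Bone marrow came from C57BL/6 mice labelled New born-P7, as single cells of the marrow (all cells) and as granulocytic (G) and monocytic (M) sorts. From BALB/c mice with the label immune-deficiency came splenic G, M and combined (G+M) sorts, and spleens of APCmin/+ mutant mice gave the same 3 sorts. These 3 sorts were also made from APCmin/+ mutant intestine, beside its unsorted single cells (all cells). APCmin/+ mice carry a mutant Apc allele that leads to intestinal tumours, but the labels do not say whether tumour or normal stretches were taken, and no intestine of another genotype is among the groups. Age is given for the marrow mice only, and neither the cause of the immune deficiency nor the surface markers of the sorts is given in the sources used here. Nothing in the labels says that the 3 libraries of a group are separate animals, so p-values measure the spread between libraries, which may be technical.

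TPM is scaled by transcript length and sums to 1000000 in every library, so it keeps no read depth, and counting error could not be stated. Each library had 21551 to 24910 genes above 0. The sorts were checked against markers of the cell types they could hold, as sums of TPM over fixed lists. The 11 neutrophil markers summed to 5570 to 141335 in the 27 libraries of marrow and spleen but to 30.1 to 731 in the 12 intestinal ones, where 10 epithelial markers summed to 8095 to 13018, against 2.03 to 67.8 elsewhere. In every intestinal library the epithelial sum exceeded the neutrophil sum. In newborn marrow the neutrophil sum was 128496 ± 11248 (SD, n = 3) in M sorts against 130740 ± 5274 in G sorts, in APCmin/+ spleen 83622 ± 42108 against 72746 ± 55185, and in BALB/c spleen 6484 ± 1055 against 22891 ± 4921. Neutrophil markers higher in G than in M sorts numbered 6 of 11 in marrow, 7 in BALB/c spleen, 2 in APCmin/+ spleen and 0 in intestine, and none was lower. Monocyte markers higher in M than in G sorts numbered 8 of 8 in marrow, 6 in either spleen and 3 in intestine, and none was lower. In bulk RNA, fewer cells of a type and less RNA per cell cannot be told apart, and this holds for every result below.

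To show where the 4 members that the results turn on start, the 250 bases before their RefSeq start site are printed 5′ to 3′ on the gene's strand (build GRCm38.p6). Entries were found for 8 of the 10 members. Capitals mark exact matches to 5 motifs searched on both strands: the C/EBP palindrome TTGCGCAA, a TATA box TATAAA, a GC box GGGCGG, a cyclic AMP response core TGACG and a PU.1 core GGAAGT. The windows are chr2:36230176-36230425 (plus strand) for Ptgs1, chr1:150099781-150100030 (plus) for Ptgs2, chr6:116461179-116461428 (minus) for Alox5 and chr14:55765712-55765961 (plus) for Ltb4r1.
Ptgs1: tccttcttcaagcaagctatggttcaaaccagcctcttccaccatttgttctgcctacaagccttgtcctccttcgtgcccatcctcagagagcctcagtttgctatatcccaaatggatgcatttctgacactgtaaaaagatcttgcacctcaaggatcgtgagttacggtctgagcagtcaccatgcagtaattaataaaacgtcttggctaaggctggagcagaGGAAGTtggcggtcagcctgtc
Ptgs2: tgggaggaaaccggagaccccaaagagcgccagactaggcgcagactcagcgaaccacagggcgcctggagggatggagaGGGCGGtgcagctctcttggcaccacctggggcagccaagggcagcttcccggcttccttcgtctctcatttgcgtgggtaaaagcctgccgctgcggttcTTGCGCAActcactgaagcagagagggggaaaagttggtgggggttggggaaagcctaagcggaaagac
Alox5: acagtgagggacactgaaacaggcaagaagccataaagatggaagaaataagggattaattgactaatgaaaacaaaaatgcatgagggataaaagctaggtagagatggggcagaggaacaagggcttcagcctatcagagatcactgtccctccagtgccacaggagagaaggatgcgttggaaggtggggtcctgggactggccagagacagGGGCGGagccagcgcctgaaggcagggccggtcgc
Ltb4r1: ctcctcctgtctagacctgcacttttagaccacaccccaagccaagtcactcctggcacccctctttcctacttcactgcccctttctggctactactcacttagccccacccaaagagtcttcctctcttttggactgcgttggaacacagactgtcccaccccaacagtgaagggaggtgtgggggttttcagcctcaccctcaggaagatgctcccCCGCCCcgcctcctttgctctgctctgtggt
The window of Ptgs2, the inducible gene, holds the C/EBP palindrome beginning 69 bases before the start, a match found in 0.164% of 32851 windows of this length, and a GC box at 170 bases. Ptgs1 holds a PU.1 core at 22 bases, a match found in 19.7% of windows. Alox5 holds a GC box at 35 bases and Ltb4r1 one at 31 bases, on the opposite strand as printed, and GC boxes were found in 32.7% of windows. TATAAA (12.4% of windows) and TGACG (17.8%) are in none of these 4 windows. Such matches describe letters, not occupied sites.

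**Figure D1:**
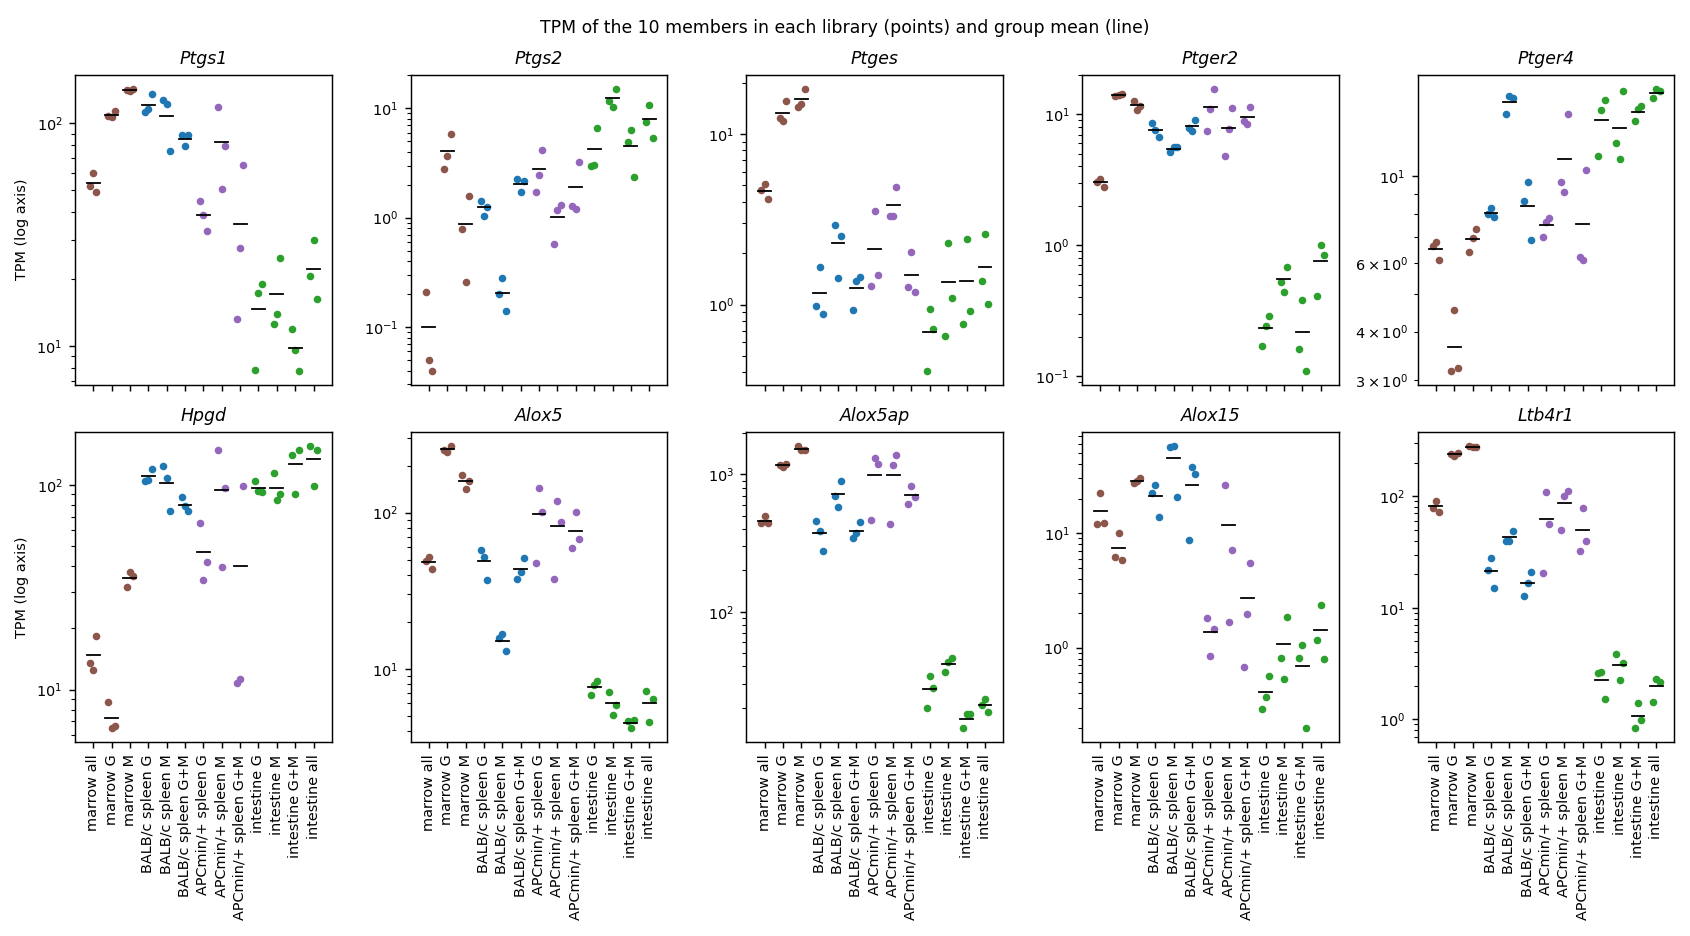
TPM on a log axis for the 10 members in each of 39 libraries (points, 3 per group) with the group mean (line), coloured by tissue and mouse. Alox5, Alox5ap, Ltb4r1 and Ptger2 are lower in all 12 intestinal libraries than in any of the 27 others, while Ptgs2 is highest in the intestinal M sorts (10.4 to 15.1 TPM).

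Alox5ap was the most abundant member in marrow, at 1538 ± 62.7 TPM in M and 1162 ± 25.8 in G sorts, and Ptgs2 one of the scarcest, at 0.10 ± 0.0954 TPM in all marrow cells. Arranged by their highest group, Ptgs1, Ptges, Alox5ap and Ltb4r1 peaked in marrow M sorts, Alox5 and Ptger2 in marrow G sorts, Alox15 in BALB/c splenic M sorts, Ptgs2 in intestinal M sorts, and Hpgd and Ptger4 in all intestinal cells. The order of groups was clearest for Alox5, Alox5ap, Ltb4r1 and Ptger2, where 5 of 12 neighbouring groups did not overlap. For Ptgs2 neighbouring groups overlapped in 12 of 12 cases, so its order is a graded one.

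Differences were tested with limma on log2(TPM + 1), a scale that understates changes of scarce genes such as Ptgs2 and Ptger2. The fit pooled the spread of each gene over the 13 groups. Groups with close libraries are thus judged partly by the spread of wider groups, and wide groups partly by that of closer ones. A gene was called at a Benjamini-Hochberg adjusted p under 0.05 over the 18466 genes where its log2 fold change also reached 1 in either direction. Over 16 comparisons the members were called in 53 of 160 cases, 23 higher and 30 lower, and 9 of 10 members were called somewhere. Between G and M sorts, 3 of 10 members were called in marrow (10.2% of all genes), 1 in BALB/c spleen (4.94%), 2 in APCmin/+ spleen (3.22%) and 1 in intestine (2.83%). Between intestine and APCmin/+ spleen, 6 members were called in G sorts (40.8% of genes), 8 in M sorts (39.9%) and 6 in combined sorts (39.3%). Between APCmin/+ and BALB/c spleen the counts were 5 for G (8.87%), 2 for M (11.5%) and 4 for combined sorts (9.00%). Marrow sorts against all marrow cells gave 7 members for G (19.1%) and 7 for M (19.1%). Intestinal sorts against all intestinal cells gave none for G (5.38%), M (4.42%) or combined sorts (3.24%). The interaction of G against M between intestine and APCmin/+ spleen gave 1 (8.52%). With counts of 1 to 8 of 10 members, these shares are descriptions.

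**Figure D2:**
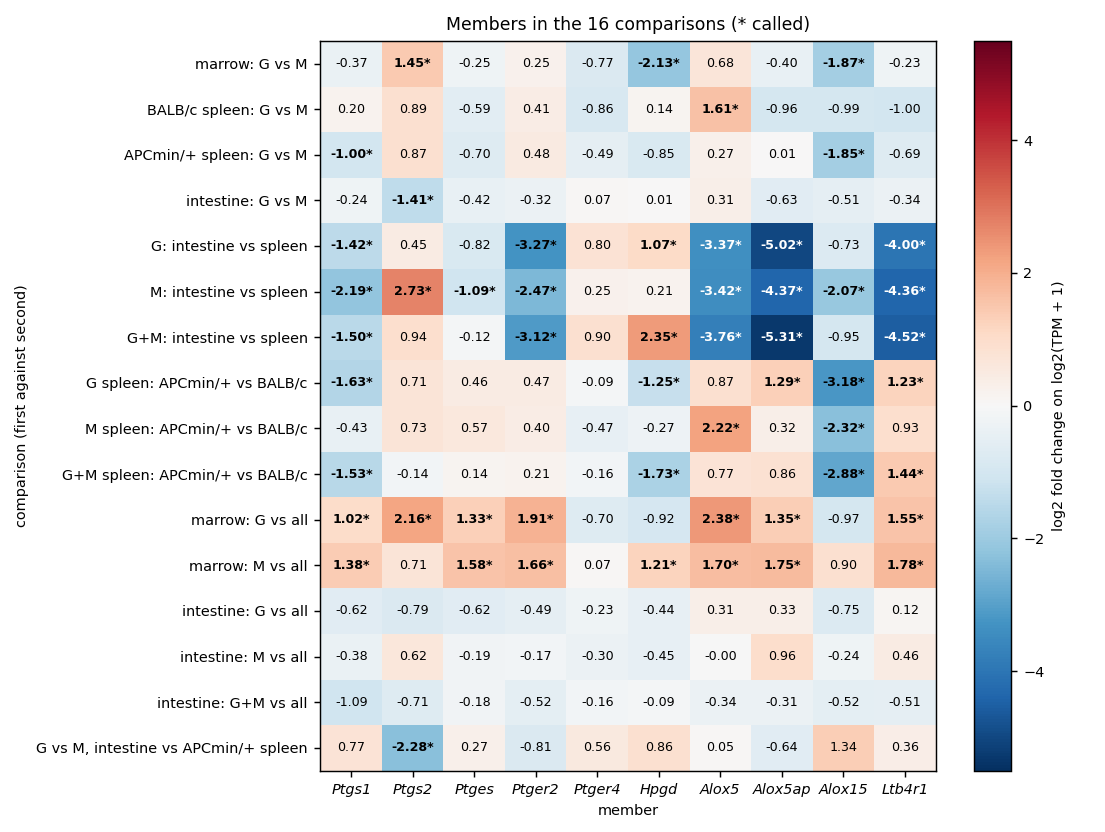
Log2 fold changes on log2(TPM + 1) of the 10 members (columns) in the 16 comparisons (rows, first group against second); asterisks mark the 53 called cases. The deepest blue is in the rows of intestine against spleen for Alox5ap, Ltb4r1, Alox5 and Ptger2, and Ptgs2 turns from positive to negative between the rows of G against M.

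Ptgs2 was higher in G than in M sorts of marrow and lower in G than in M sorts of intestine. In newborn marrow its TPM was 2.77, 3.64 and 5.78 in the G libraries and 0.78, 0.26 and 1.57 in the M libraries, groups that do not overlap. The log2 fold change was 1.45 ± 0.31 (SE; limma adjusted p = 4.72e-04). Beside it, stromal and endothelial markers were higher in marrow G sorts (7 of 9, sums of 314 ± 90.5 against 58.9 ± 18.3 TPM), as were B and plasma cell (8 of 10, 2943 ± 114 against 668 ± 73.8) and platelet markers (4 of 8, 435 ± 215 against 174 ± 32.7). All marrow cells, with 0.10 ± 0.0954 TPM of Ptgs2, had sums of 656 ± 133, 1760 ± 101 and 696 ± 178 for these lists in the same order. The part of these cells in the difference was not tested. In intestine the order was the opposite, with 3.00, 3.06 and 6.58 TPM in G and 11.6, 10.4 and 15.1 in M sorts, again without overlap. Here the log2 fold change was -1.41 ± 0.31 (limma adjusted p = 0.00343). A fit of these 6 libraries alone lost the intestinal call (adjusted p = 0.0613), and with replicate number as a block those 6 libraries gave an adjusted p of 4.19e-04.

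In both spleens Ptgs2 leaned toward the G sort without being called. BALB/c spleen had 1.43, 1.04 and 1.25 TPM in G and 0.20, 0.28 and 0.14 in M sorts, a log2 fold change of 0.89 (adjusted p = 0.0429) that is under the fold minimum. With a pseudocount of 0.1 it became 2.14 and was called (adjusted p = 0.00158). APCmin/+ spleen had 1.73, 2.44 and 4.19 TPM in G and 0.57, 1.18 and 1.32 in M sorts, with a log2 fold change of 0.87 (adjusted p = 0.0429). It was called with a pseudocount of 0.1 (1.34, adjusted p = 0.0466) and without G library 1 (1.08, adjusted p = 0.0191). In neither spleen do the G and M values overlap.

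The site dependence was tested directly. The G against M difference of Ptgs2 was lower in intestine than in APCmin/+ spleen (interaction -2.28 ± 0.44 on the log2 scale, limma adjusted p = 5.37e-04), the member called in this comparison. Leaving out each library in turn kept it between -2.59 and -2.03. Interactions against the other 2 sites were added after the data were seen and share the intestinal libraries with it. Against BALB/c spleen the value was -2.30 (adjusted p = 4.61e-04), where 2 of 10 members were called (6.97% of genes), and against marrow -2.87 (adjusted p = 1.33e-05), where 2 were called (12.3%).

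**Figure D3:**
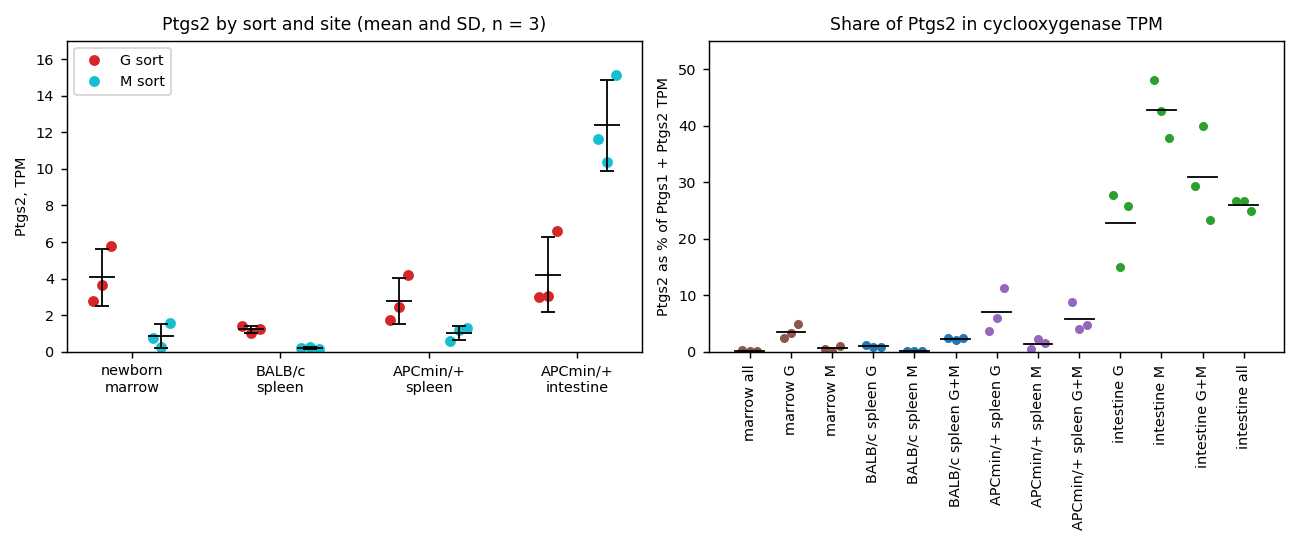
Left, TPM of Ptgs2 in G and M sorts at 4 sites (points are libraries, bars the mean and SD, n = 3); the G sorts lie above the M sorts in marrow and both spleens and below them in intestine. Right, Ptgs2 as a percentage of the summed TPM of Ptgs1 and Ptgs2 in each library, with group means as lines; it is 15.03% or more in the 12 intestinal libraries and 11.3% or less elsewhere.

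Within the M sorts Ptgs2 was 12.1-fold higher by group means in intestine than in APCmin/+ spleen, with a log2 fold change of 2.73 ± 0.31 (limma adjusted p = 4.46e-09). The combined sorts missed the fold minimum (0.94, adjusted p = 0.00827) and were called with a pseudocount of 0.1 (1.26), with rescaled libraries (1.16) and without combined library 3 of spleen (1.24) or of intestine (1.27). The G sorts overlapped (0.45, adjusted p = 0.202). Combined intestinal sorts had 4.97, 6.38 and 2.36 TPM and all intestinal cells 7.51, 10.8 and 5.38. The mean of M sorts lay above that of all intestinal cells and the means of G and combined sorts below it. Values of each sort overlapped those of all cells, and none of these differences was called. Beside the intestinal contrast, the summed monocyte markers were 601 ± 66.4 TPM in M against 124 ± 26.2 in G sorts, and 10 B and plasma cell markers 112366 ± 18971 against 8077 ± 3269. Epithelial sums were close, at 11549 ± 284 and 12478 ± 577, and those of 9 tuft cell markers, epithelial cells that can make prostaglandins, were 115 ± 7.54 and 143 ± 25.4. T and NK cell markers summed to 167 ± 101 in M against 54.3 ± 14.1 in G sorts (3 of 9 called), eosinophil markers to 49.5 ± 10.8 against 13.7 ± 2.11 (1 of 5) and mast cell markers to 71.5 ± 23.2 against 45.5 ± 24.8 (1 called). The part of these cells' transcripts in the Ptgs2 difference was not tested.

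Ptgs1 was the more abundant cyclooxygenase transcript in every library. It ranged from 49.2 to 143 TPM over the marrow libraries, from 75.1 to 136 in BALB/c spleen, from 13.2 to 118 in APCmin/+ spleen and from 7.76 to 29.9 in intestine. It was lower in intestine than in APCmin/+ spleen in all 3 sorts, with log2 fold changes of -1.42 ± 0.36 (G, limma adjusted p = 9.13e-04), -2.19 ± 0.36 (M, 3.62e-06) and -1.50 ± 0.36 (G+M, 5.52e-04). Without combined library 3 of APCmin/+ spleen, the highest of its group, the last value was -0.92 and under the fold minimum. Ptgs2 made up 15.03 to 48.0% of the summed cyclooxygenase TPM in the 12 intestinal libraries (median 27.2%), against 0.0812 to 11.3% in the 27 others (median 1.63%). The share was 42.8 ± 5.06% in intestinal M sorts and 22.9 ± 6.86% in G sorts.

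Ptges, which completes prostaglandin E2 synthesis, was highest in the marrow sorts. The G sorts of marrow had 12.5, 11.9 and 15.5 TPM and the M sorts 14.4, 14.9 and 18.4, against 4.70, 5.07 and 4.18 in all marrow cells, below either sort without overlap. The log2 fold changes over all cells were 1.33 ± 0.27 in G (adjusted p = 1.26e-04) and 1.58 ± 0.27 in M sorts (1.57e-05). Outside marrow it stayed between 0.41 and 4.89 TPM. It was lower in intestinal than in APCmin/+ splenic M sorts (-1.09 ± 0.27, limma adjusted p = 6.75e-04). That value fell under the fold minimum without splenic M library 3 (-0.94), without intestinal M library 1 (-0.87) and with rescaled libraries (-0.69). A pseudogene, Gm13400, lies inside Ptges on the same strand and reached 1.67 TPM.

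Of the prostaglandin E2 receptors, Ptger2 was lower in intestine, while Ptger4 was called nowhere. Ptger2 was 0.11 to 1.01 TPM in the 12 intestinal libraries and 2.80 to 15.7 in the 27 others. It was lower in intestine than in APCmin/+ spleen in G sorts (-3.27 ± 0.20, adjusted p = 2.67e-15), M sorts (-2.47 ± 0.20, 2.91e-12) and combined sorts (-3.12 ± 0.20, 8.55e-15). With a pseudocount of 0.1 these values were -5.06, -3.57 and -5.02. In marrow it was 13.87, 13.97 and 14.39 TPM in G and 12.7, 10.8 and 11.6 in M sorts against 3.02, 3.23 and 2.80 in all cells, so both sorts exceeded the whole marrow (log2 fold changes 1.91 and 1.66).

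Ptger4 was called in 0 of 16 limma comparisons, although it was under an unadjusted p of 0.05 in 8 and under an adjusted p of 0.05 in 7, since its changes were smaller than the fold minimum. It was 11.1 to 16.8 TPM in intestine, 6.09 to 16.03 in the spleens and 3.18 to 7.34 in marrow. In BALB/c spleen M sorts had 14.45, 16.03 and 15.87 TPM and G sorts 7.99, 8.28 and 7.85, with a log2 fold change of -0.86 (adjusted p = 3.01e-04). In marrow the same contrast gave -0.77 (adjusted p = 5.02e-04). Intestine lay above APCmin/+ spleen by 0.80 in G sorts (adjusted p = 8.01e-05) and 0.90 in combined sorts (1.77e-05), and with rescaled libraries these became 1.04 and 1.15 and were called. In M sorts the values overlapped (log2 fold change 0.25, adjusted p = 0.184). The ratio of Ptger4 to Ptger2 TPM was 16.6 to 138 in intestinal libraries and 0.224 to 2.86 elsewhere. Antisense gene Gm17173 overlaps 15626 bases of Ptger2 and reached 23.6 TPM, and Ttc33 overlaps 11676 bases of Ptger4 on the other strand and reached 29.8 TPM. The library kit marks strand, but whether counting used it is not given in the sources used here, so values of these receptors are uncertain where they overlap.

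Hpgd, the enzyme that breaks prostaglandins down, was low in marrow and high in intestine, where it was 84.8 to 155 TPM. In marrow the G sorts had 8.69, 6.52 and 6.62 TPM and the M sorts 31.6, 37.5 and 36.1, a log2 fold change of -2.13 ± 0.47 (limma adjusted p = 7.99e-04) with no overlap. All marrow cells lay between them at 13.4, 12.5 and 18.3, and the rise in M sorts over these (1.21, adjusted p = 0.0339) lost its call without any of M libraries 1, 2 and 3 or all-cell libraries 1 and 2 (1.28, 1.16, 1.19, 1.16 and 1.11; adjusted p 0.0541 to 0.0954). In intestine G and M sorts did not separate, at 104, 93.2 and 92.7 TPM against 114.57, 84.75 and 89.99. The G against M difference was higher in intestine than in marrow by 2.14 (adjusted p = 0.0182), in the interaction added after the data were seen.

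In spleen, Hpgd varied more between APCmin/+ libraries than between sorts, and macrophage markers varied with it. Combined APCmin/+ libraries 1, 2 and 3 had 10.8, 11.3 and 98.8 TPM of Hpgd, while the 8 macrophage markers summed to 244, 199 and 2772. M libraries had 148, 39.6 and 96.4 TPM beside sums of 4314, 1060 and 2243, and G libraries 64.9, 34.2 and 42.2 beside 1811, 824 and 1188. In BALB/c spleen both were high throughout, with 74.7 to 123 TPM of Hpgd and macrophage sums of 1561 to 3666. The library with most macrophage transcripts in each APCmin/+ group was also its highest for Hpgd. Their part in the differences between groups was not tested.

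Hpgd was lower in G and combined sorts of APCmin/+ than of BALB/c spleen, with log2 fold changes of -1.25 in G sorts (limma adjusted p = 0.0444) and -1.73 in combined sorts (0.00673). The values of combined sorts overlapped, since APCmin/+ library 3 had 98.8 TPM, as did those of M sorts (-0.27, adjusted p = 0.718). The G call was lost without BALB/c library 1, 2 or 3 and without APCmin/+ library 2 or 3 (-1.29, -1.28, -1.19, -1.05 and -1.20; adjusted p 0.0792 to 0.190). The combined call was lost without APCmin/+ library 1 (-1.21, adjusted p = 0.0847) or 2 (-1.24, 0.0867) and grew to -2.75 without library 3. Against APCmin/+ spleen, intestine was higher by 2.35 ± 0.47 in combined sorts (adjusted p = 6.47e-05; 3.37 without splenic library 3). In G sorts it was higher by 1.07 (0.0461), a call lost without splenic G library 2 or 3 or intestinal G library 1, 2 or 3 (0.87, 1.02, 1.02, 1.09 and 1.10; adjusted p 0.0740 to 0.151). The values of combined sorts overlapped between intestine and spleen, as did those of M sorts (0.21, adjusted p = 0.715). In these comparisons 7 of 8 macrophage markers were lower in intestine, while epithelial markers were higher, 10 of 10.

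In M and combined sorts of APCmin/+ spleen, Ptgs1 and Alox15 ordered the libraries as Hpgd did. Combined APCmin/+ libraries 1, 2 and 3 had 13.2, 27.7 and 65.3 TPM of Ptgs1 and 0.68, 1.95 and 5.47 of Alox15, highest in library 3. M libraries had 118, 50.7 and 79.5 of Ptgs1 and 26.5, 1.69 and 7.09 of Alox15, highest in library 1. G libraries had 45.0, 38.7 and 32.8 of Ptgs1 and 1.83, 0.84 and 1.45 of Alox15, in different orders. There Alox15 kept the order of Hpgd, and Ptgs1 did not. Orders differed in BALB/c spleen too, where G libraries had 112, 116 and 136 of Ptgs1 and 22.5, 26.5 and 13.8 of Alox15. Combined BALB/c libraries had 88.32, 79.06 and 89.15 of Ptgs1 and 8.65, 37.54 and 33.14 of Alox15. In BALB/c M sorts library 3 was lowest for Ptgs1 (75.1) and for Alox15 (20.8). The plot of members beside marker sums shows these libraries.

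**Figure D4:**
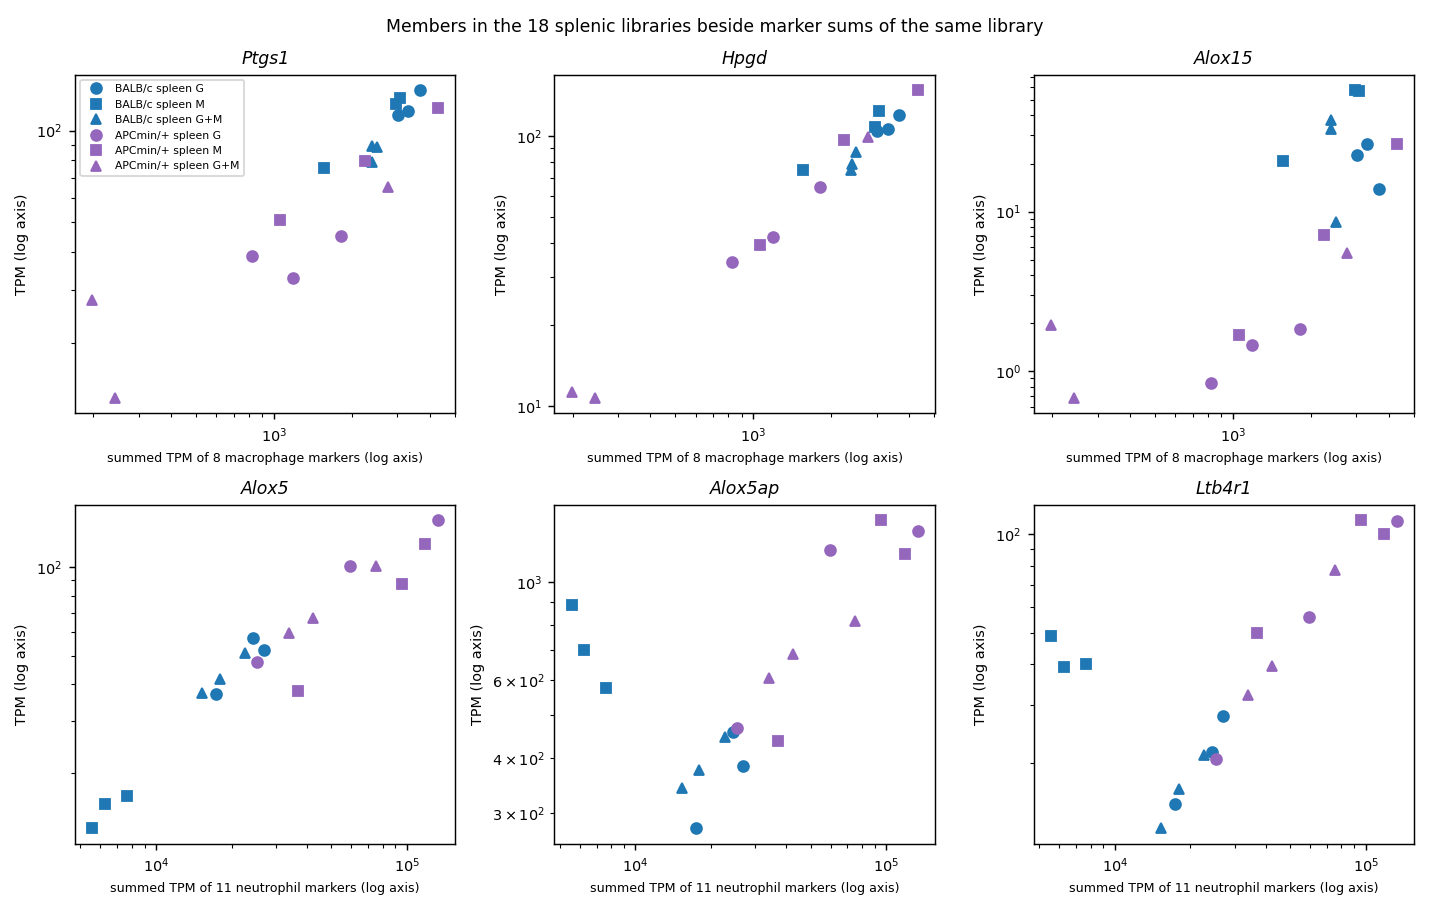
Each point is 1 of 18 splenic libraries; the y axes give TPM of a member and the x axes the summed TPM of 8 macrophage markers (upper row) or 11 neutrophil markers (lower row) in the same library, all on log axes. Hpgd spans 10.8 to 148 TPM along macrophage sums of 199 to 4314, and BALB/c M sorts, with the lowest neutrophil sums (5570 to 7639), hold the lowest Alox5 but not the lowest Alox5ap.

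Alox15 was lower in APCmin/+ than in BALB/c spleen in each sort. The values overlapped in M sorts only. BALB/c G, M and combined libraries had 13.8 to 26.5, 20.8 to 57.8 and 8.65 to 37.5 TPM. The log2 fold changes were -3.18 ± 0.57 in G (limma adjusted p = 8.88e-05), -2.32 ± 0.57 in M (0.00182) and -2.88 ± 0.57 in combined sorts (3.17e-04). The M value was -3.17 without APCmin/+ library 1 and -1.50 without library 2 (adjusted p = 0.0436), and the combined value was -3.51 without BALB/c library 1. A fit of the 6 M libraries alone lost that call (adjusted p = 0.0861). The strain, the Apc genotype and the immune state differ together between these spleens and cannot be told apart. Of the 8 macrophage markers, 4 were lower in APCmin/+ G sorts, 6 in combined sorts and none in M sorts, where 1 was higher.

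Alox15 was also higher in M than in G sorts of marrow, at 27.6, 28.7 and 30.1 TPM against 6.22, 9.94 and 5.87 (log2 fold change of G over M -1.87 ± 0.57, adjusted p = 0.0118). In APCmin/+ spleen the same contrast was -1.85 (adjusted p = 0.0205) and rested on single libraries. Leaving out M library 1 gave -0.997 (adjusted p = 0.213) and M library 2 gave -2.67. The call was also lost when G library 2 (-1.68, 0.0704) or G library 3 (-1.88, 0.0565) was left out. A fit of the 6 libraries lost the call without (adjusted p = 0.286) and with replicate number as a block (0.0788). Between intestine and APCmin/+ spleen Alox15 was called in M sorts at -2.07 (adjusted p = 0.00175), which was -1.22 without splenic M library 1 and -2.90 without M library 2. Intestinal libraries held 0.20 to 2.35 TPM.

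Ptgs1 in APCmin/+ spleen was lower in G than in M sorts (log2 fold change -1.004, limma adjusted p = 0.0471). The call was lost without M library 1 (-0.71, adjusted p = 0.229) or 3 (-0.99, 0.0885) and without G library 2 (-1.01, 0.0907) or 3 (-0.89, 0.161). With replicate number as a block it was lost too (adjusted p = 0.0671 over all libraries and 0.0625 in the 6), as it was with rescaled libraries (-0.81) and in the fit of these 6 libraries without the block (0.242). Against BALB/c spleen, Ptgs1 was lower in APCmin/+ G sorts (log2 fold change -1.63 ± 0.36, adjusted p = 0.00102) and in combined sorts (-1.53 ± 0.36, 0.00205). The latter was -0.99, under the fold minimum, without APCmin/+ library 1. In marrow Ptgs1 was higher in both sorts than in all cells, by 1.02 in G (adjusted p = 0.0195) and 1.38 in M (0.00193), and the G value fell below the fold minimum without G library 3 (0.99) or all-cell library 3 (0.96).

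The leukotriene B4 genes Alox5, Alox5ap and Ltb4r1 were all low in intestine, while their ranges in marrow and spleen overlapped. Alox5 was 43.5 to 268 TPM in marrow, 12.97 to 144 in the spleens and 4.19 to 8.37 in intestine. Alox5ap, which presents arachidonic acid to Alox5, was 438 to 1609, 278 to 1377 and 14.3 to 46.0 TPM. The receptor Ltb4r1 was 72.5 to 283, 12.6 to 110 and 0.84 to 3.86 TPM. Each was lower in all 12 intestinal libraries than in the lowest of the 27 others.

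Between intestine and APCmin/+ spleen, Alox5 was lower with log2 fold changes of -3.37, -3.42 and -3.76 in G, M and combined sorts (limma adjusted p at most 2.18e-11). Those of Alox5ap were -5.02, -4.37 and -5.31 (at most 1.40e-13) and those of Ltb4r1 -4.00, -4.36 and -4.52 (at most 4.18e-11). The G value of Ltb4r1 was -4.63 without splenic G library 1. Rescaling libraries by their median ratio over 6908 genes moved the median of all genes in the M comparison from -0.43 to 0, and gave -2.83 for Alox5, -3.73 for Alox5ap and -1.56 for Ptgs1 there. All 11 neutrophil markers were lower in intestine in each of the 3 sorts, and none was listed at 0 throughout a group. The part of neutrophil transcripts in the fall of these genes was not tested.

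The balance of Alox5 and its partner differed between G and M sorts of marrow, BALB/c spleen and intestine. Marrow G libraries had 252, 245 and 268 TPM of Alox5 against 175, 143 and 161 in M, whereas Alox5ap was 1162, 1136 and 1188 against 1609, 1492 and 1513, the opposite order. Neither gene was called (limma log2 fold changes 0.68 and -0.40, adjusted p = 0.0876 and 0.364), though G and M values of each do not overlap. Both changes are under the fold minimum, and the p-values rest on a spread pooled over all groups. Alox5ap was 1162 ± 25.8 TPM in marrow G but 982 ± 450 in APCmin/+ splenic G sorts. The ratio of Alox5ap to Alox5 TPM was 4.56 ± 0.113 in marrow G and 9.69 ± 0.679 in marrow M sorts, without overlap. In BALB/c spleen Alox5 had 57.5, 52.4 and 37.0 TPM in G and 15.70, 16.71 and 12.97 in M sorts. This difference was called (1.61 ± 0.30, limma adjusted p = 1.96e-04). Alox5ap had 457, 383 and 278 against 700, 576 and 888 TPM there (-0.96, adjusted p = 0.0267, under the fold minimum). It was called without BALB/c G library 1 (-1.12) or M library 2 (-1.11). The ratio was 7.59 ± 0.324 in G and 49.2 ± 17.5 in M sorts. In APCmin/+ spleen Alox5 was 47.7, 144 and 101 TPM in G and 37.8, 120 and 87.3 in M sorts, which overlap. The ratio there overlapped too, at 10.2 ± 1.37 in G and 12.3 ± 3.12 in M sorts. In intestine the ratio was 3.52 ± 0.705 in G and 7.17 ± 1.80 in M sorts, without overlap, while neither gene was called. The G against M difference of Alox5 was lower in intestine than in BALB/c spleen (interaction -1.30, adjusted p = 0.0287, added after the data were seen). That call was lost without BALB/c G library 1 (-1.17, adjusted p = 0.0734) or 2 (-1.24, 0.0608), BALB/c M library 3 (-1.20, 0.0645), intestinal G library 2 (-1.32, 0.0505) or intestinal M library 1 (-1.19, 0.0773), and with no filter (0.0548).

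Between the spleens, Alox5 of M sorts was higher in APCmin/+ than in BALB/c mice by 2.22 ± 0.30 (limma adjusted p = 1.07e-06), with no overlap, beside neutrophil sums of 83622 ± 42108 and 6484 ± 1055 and 10 of 11 neutrophil markers higher. Alox5ap was higher in G sorts by 1.29 ± 0.31 (adjusted p = 0.00185), a call that a fit of the 6 libraries lost (0.0515). Ltb4r1 was higher in G sorts by 1.23 ± 0.37 (adjusted p = 0.0107). APCmin/+ G libraries 1, 2 and 3 had 20.5, 110 and 55.7 TPM of it, beside neutrophil sums of 25333, 133322 and 59582. The value was 0.68 without library 2 (adjusted p = 0.189), 1.86 without library 1 and 1.01 without BALB/c library 3 (0.0701). In combined sorts Ltb4r1 was higher by 1.44 ± 0.37 (adjusted p = 0.00359), or 1.07 without APCmin/+ library 2 (0.0522). Neutrophil markers higher in APCmin/+ spleen numbered 2 of 11 in G and 3 of 11 in combined sorts. Their part in these differences was not tested.

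In marrow the sorts carried more of this machinery than the tissue they came from. Alox5 was higher than in all cells (49.2, 52.0 and 43.5 TPM) by 2.38 ± 0.30 in G and 1.70 ± 0.30 in M sorts, Alox5ap by 1.35 and 1.75, and Ltb4r1 by 1.55 and 1.78 (limma adjusted p at most 6.67e-04). Ptgs2 was 0.21, 0.05 and 0.04 TPM in all cells and lay below both sorts without overlap. It was called against G sorts (2.16 ± 0.31, adjusted p = 9.04e-07; 4.41 with a pseudocount of 0.1). Against M sorts the value was 0.71 (adjusted p = 0.0567), and with a pseudocount of 0.1 it was 2.11 and called (adjusted p = 4.47e-04). Neutrophil sums were 37524 ± 4297 in all cells. In intestine, by contrast, no member was called between a sort and all cells. Members under an unadjusted p of 0.05 in limma numbered 3 for G, 1 for M and 3 for combined sorts. Of 18466 genes, 4819, 7819 and 2388 were. Neutrophil markers higher than in all cells numbered 9 of 11 in marrow G and 8 in marrow M sorts. In intestinal G, M and combined sorts 0 were higher, and 1, 2 and 0 were lower. Monocyte markers higher than in all cells numbered 8 of 8 in marrow M and 2 in intestinal M sorts. None of 10 epithelial markers was called in an intestinal sort against all cells.

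The other genes of the pathway were taken from a fixed list of 41, of which 34 passed the filter (median log2 fold changes below are over these). Between G and M sorts, 7 were higher and 3 lower in marrow (median 0.15, against 0.04 for all genes), 1 and 4 in BALB/c spleen (-0.10 against -0.05), 0 and 3 in APCmin/+ spleen (-0.39 against -0.08) and 0 and 2 in intestine (0.01 against 0.14). Over all 18466 genes, 1272 were called higher and 614 lower in marrow, and 315 and 598 in BALB/c spleen. The counts were 107 and 487 in APCmin/+ spleen and 13 and 510 in intestine. Cyp4f18, which degrades leukotriene B4, also changed its order with the site. It was higher in BALB/c splenic G sorts (1.32 ± 0.26, adjusted p = 4.02e-04) and lower in intestinal G sorts (-1.34 ± 0.26, adjusted p = 0.00107), with an interaction between intestine and APCmin/+ spleen of -1.95 (adjusted p = 4.63e-04) and an added one with BALB/c spleen of -2.66 (1.32e-05). Dpep2, a dipeptidase that cleaves leukotriene D4, was lower in G sorts of marrow (-2.63) and both spleens (-2.92 and -1.33). Cysltr1, a receptor for cysteinyl leukotrienes, was lower in G sorts of marrow (-2.35) and BALB/c spleen (-2.51). Tbxa2r, the thromboxane receptor, was higher in marrow G sorts (2.47), with 16.7 TPM against 2.20. The interaction gave 4 higher and 2 lower (median 0.42 against 0.23), and 909 and 664 over all genes.

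Between intestine and APCmin/+ spleen, 13 of the 34 were higher and 9 lower in G sorts (median 0.06, against -0.16 for all genes), 11 and 13 in M sorts (-0.29 against -0.43) and 11 and 7 in combined sorts (0.21 against -0.15). Those higher included the secreted phospholipase Pla2g2a (75.4 to 152 TPM by group mean in intestine), the dipeptidase Dpep1 (230 to 300), the leukotriene-processing Ggt1 (134 to 279), the reductase Cbr1 (96.5 to 129) and the prostaglandin transporter Slco2a1 (14.5 to 20.2). Lower genes included Cyp4f18, Ggt5, the thromboxane synthase Tbxas1, the prostacyclin receptor Ptgir and Tbxa2r. Lta4h, which makes leukotriene B4, was called in none of these 3, at 142 to 184 TPM in intestine and 146 to 276 in APCmin/+ spleen. Over all 18466 genes, 3449 were called higher and 4093 lower in G sorts. The counts were 2630 and 4737 in M and 3592 and 3668 in combined sorts.

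Between the spleens, 2 pathway genes were higher and 4 lower in APCmin/+ G sorts (median 0.02, against -0.15 for all genes), 5 and 4 in M sorts (-0.01 against -0.14) and 2 and 2 in combined sorts (-0.07 against -0.12). Over all genes the counts were 572 and 1066 in G, 1017 and 1103 in M and 667 and 995 in combined sorts. Lta4h was higher in APCmin/+ mice in G, M and combined sorts (1.06, 1.96 and 1.23). Hpgds, a prostaglandin D2 synthase, was lower in the 3 (-2.19, -1.31 and -2.28), and Tbxas1 in G (-1.23) and combined sorts (-1.07). In marrow, 5 were higher and 3 lower in G sorts than in all cells (median -0.15 against -0.03) and 3 and 8 in M sorts (-0.07 against -0.10). In intestine none was higher and 6, 2 and 2 were lower in G, M and combined sorts than in all cells (medians -0.36, -0.22 and -0.11, against -0.14, -0.27 and -0.09). Over all genes, 1782 were called higher and 1753 lower in marrow G sorts, and 1454 and 2071 in marrow M sorts. Calls of all genes in intestinal sorts were mostly lower too, 965 of 994 in G, 679 of 816 in M and 597 of 599 in combined sorts.

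The genes whose group means most resembled a member's were found by Pearson's r of log2(mean TPM + 1) over the 13 groups, among 12544 genes, as a description of groups that share tissues. Alox5 was most like Jdp2 (0.991), Slco4c1 (0.991) and Bmx (0.990), and Alox5ap like Rhog (0.997), the myeloid integrin gene Itgam (0.992) and Ifitm6 (0.990). Ltb4r1 was most like Arpc3 (0.990), the granulocyte transcription factor Cebpe (0.989) and Atp8b4 (0.988), and Ptger2 like Lyst (0.997), Cdk2ap2 (0.993) and Zyx (0.992). Ptgs1 was most like Wbp2 (0.983), Alox15 like Rnasek (0.975), Ptges like Pknox2 (0.966), Ptger4 like Nr2c1 (0.965) and Hpgd like Zfp703 (0.960). Ptgs2 had the least close partners, Ksr1 (0.937), Sertad1 (0.909) and Prrg2 (0.908).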

How the data were processed

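Polyadenylated RNA of 39 mouse samples was sequenced. Per the labels' protocols, cells went into Trizol, libraries were made with a stranded mRNA kit, and single reads were sequenced. Per the submitters' processing notes, the tools were bcl2fastq 2.18, STAR 2.6.1c and RSEM, with build mm10. The sources used here do not give the annotation, the RSEM version or the use of strand in counting. The values the authors deposited are gene-level TPM, 53465 genes by 39 libraries. Of these, 26 symbols that had become dates were restored from their identifiers, and no library pair was identical.

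The 18466 genes reaching 1 TPM in 3 or more libraries were analysed as log2(TPM + 1) in limma 3.58.1 (R 4.3.3), fitting a mean for each group over all 39 libraries (26 residual degrees of freedom, median prior 3.02), a variance trend and two-sided moderated tests. The Benjamini-Hochberg adjustment ran over 18466 genes. Dpep2, listed under more than 1 identifier, was taken from the one with the higher total. The script was tested on simulated data. Summaries used Python 3.11.15, pandas 2.3.3 and numpy 2.4.6. Sites of overlapping genes came from the GENCODE annotation of GRCm38, and promoter windows from RefSeq. Motif starts count from the base before the start site.

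The members, the pathway and marker lists and the tests were chosen with earlier results of these data known. Named are the 10 members, pathway genes called at least in some comparison with a group mean TPM of at least 5, marker lists beside members, and for each member up to 3 genes most like it. Of the pathway genes this rule gives, those in the text are a subset chosen after their values were seen.

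Equally numbered libraries deviated together from their group means in G and M sorts of APCmin/+ spleen (correlations 0.555, 0.375 and 0.404) and of intestine (0.599, 0.432 and 0.562), and in combined and all intestinal cells (0.643, 0.590 and 0.628). The numbers were taken to pair these samples. The main fit left this pairing out, and it entered only the fits with replicate number as a block. The pairing comes from the data, since nothing in the labels ties a number to an animal or day.

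Alternatives were a pseudocount of 0.1, no filter, rescaled libraries, no fold minimum, a fit of the groups compared alone, replicate number as a block, and each library left out in turn.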

Additional observations from a re-analysis of the deposited data

Results flagged for a closer look

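The G against M difference of 3 members differed between intestine and another site in a test of the difference itself, and these are given as values. For Ptgs2 the interaction of intestine with APCmin/+ spleen was -2.28, with BALB/c spleen -2.30 and with newborn marrow -2.87 on the log2 scale, the latter pair added after the data were seen. All 3 share the intestinal libraries, so they are not separate evidence. For Alox5 the interaction of intestine with BALB/c spleen was -1.30, and for Hpgd that of intestine with marrow was 2.14, both from the added tests. Neither was called against APCmin/+ spleen (Alox5 0.05, limma adjusted p = 0.956, and Hpgd 0.86, 0.367). BALB/c spleen and newborn marrow differ from APCmin/+ intestine in mouse as well as in site, and these cannot be told apart. The Alox5 call was lost without any of several single libraries, as given with its result. Beside them, neutrophil markers summed to 280 ± 391 TPM in intestinal G (44.4, 731 and 64.0 in libraries 1, 2 and 3, so that library 2 carries the mean) and 47.3 ± 15.2 in intestinal M sorts, against 22891 ± 4921 and 6484 ± 1055 in BALB/c spleen, and the part of cell makeup was not tested.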

How the results depend on the processing

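Of the 53 called cases of a member in a comparison, 38 stayed called in the same direction under every alternative run and 41 whenever a library was left out. None of the 53 changed direction. The uncalled Hpgd differences of M sorts did: intestine against spleen ran from -0.32 to 0.62 with a library left out and APCmin/+ against BALB/c spleen from -0.68 to 0.26, each turning its sign without APCmin/+ splenic M library 2. Over G against M sorts 7 cases were called, 4 in a fit of the groups compared alone and 13 with no fold minimum. Over APCmin/+ against BALB/c spleen there were 11, and 6 in a fit of the groups compared alone. For the interaction there was 1, and 2 with a pseudocount of 0.1, with rescaled libraries or with no fold minimum. With a library left out the counts ran from 5 to 8 for G against M, from 19 to 21 for intestine against spleen, from 9 to 12 for the spleens, from 13 to 15 for sorts against all cells and from 1 to 3 for the interaction. The 3 came without APCmin/+ splenic G library 1, and 2 without M library 2 or 3. Fitting the groups alone called 0 genes in APCmin/+ spleen G against M, against 594, and 377 against 1573 for the interaction; it called 249 against 523 for intestinal G against M and had fewer residual degrees of freedom. For intestinal sorts against all cells it called 419 against 994 for G, 534 against 816 for M and 78 against 599 for combined sorts.

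Fitting the groups alone ended 8 calls, those of Alox15 (adjusted p = 0.286), Ptgs1 (0.242) and Ptgs2 (0.0613) given with their results and, between spleens, Ltb4r1 (0.133) and Alox5ap (0.0515) in G, Alox15 (0.0861) in M and Hpgd (0.141) and Ptgs1 (0.0644) in combined sorts. No filter ended 4, Ptgs1 in APCmin/+ spleen (0.0913) and Hpgd in G sorts of intestine against spleen (0.0797), in G sorts between spleens (0.0787) and in marrow M sorts against all cells (0.0624).

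Replicate number as a block over all libraries ended the call of Ptgs1 in APCmin/+ spleen G against M (adjusted p = 0.0671) and of no other case. That block was shared by spleen and intestine of APCmin/+ mice, whose numbers did not pair (correlations 0.0120, 0.107 and 0.0414 in G sorts). It therefore does not model the pairing of sorts within a tissue, and cannot show that calls outlast it. In fits of the groups alone the block ended 3, the same Ptgs1 case (0.0625), Alox15 in that comparison (0.0788) and Ptgs1 between combined sorts of intestine and spleen (0.0558), whose numbers do not pair. Rescaling ended 3 calls and moved the percentage of calls in the higher direction from 35.7 to 60.9% in M sorts of intestine against spleen, from 48.0 to 59.7% in M and 34.9 to 48.4% in G sorts between spleens. It moved that share from 18.01 to 45.6% and 34.5 to 45.8% for G against M in APCmin/+ and BALB/c spleen, from 16.8 to 38.8% for intestinal M sorts against all cells and from 57.8 to 21.3% for the interaction. The depth behind the TPM is unknown, so values under about 1 TPM, Ptgs2 in all marrow cells and Ptger2 in intestine among them, carry an error that could not be given.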
